A study of Homo sapiens with 24 samples.

Results

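The matrix metalloproteinases MMP1, MMP2, MMP3, MMP7, MMP9, MMP10, MMP13, MMP14 and MMP28 were followed through H3K27ac ChIP-seq of ANCO1 knockdown in 10A and DCIS cells. A region belonged to one of these 9 genes where the gene columns filled in by the authors named it, either over the region or within 10000 bp to its left or right. Of 171345 regions listed in 6 tables, 46 met this rule, and the tables placed 21569 gene symbols in all. H3K27ac, acetylated lysine 27 of histone H3, is found at promoters and enhancers in use, and ChIP-seq maps it by sequencing immunoprecipitated chromatin.

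Both lines are human mammary epithelium in culture. 10A (MCF10A) is immortalized and not tumorigenic, and DCIS (MCFDCIS) derives from that lineage and models ductal carcinoma in situ. Cells carried a lentiviral hairpin against ANCO1, the product of ANKRD11 (shANCO1), or a control hairpin. The control is called shCTRL, as in the sample titles, and is named shGFP in the deposited comparisons. Each combination of line and hairpin had 3 H3K27ac libraries and 3 input libraries, giving 24 libraries in 8 groups. All groups were infected and drug-selected populations and not clones, and no uninfected cells were analysed here. The study names its hairpin #3 as the one in the shANCO1 cells of the H3K27ac analysis, so a single hairpin stands for the knockdown, and the control was directed at GFP. Acetylation does not measure the ANKRD11 transcript, so the knockdown could not be checked in these tables. In shCTRL cells, 6 of 8 basal epithelial marker genes in 10A and 7 of 8 in DCIS lay under a region enriched over input, against 1 of 7 and 0 of 7 fibroblast markers. KRT14, a defining basal keratin, was not overlapped in either line. CD68 was the 1 of 4 leukocyte markers and PECAM1 the 1 of 4 endothelial markers overlapped in each line, and 4 of 5 luminal markers were.

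MMPs are zinc endopeptidases that cut extracellular matrix and many surface and soluble proteins, and they are studied in breast cancer for the breach of basement membrane that separates in situ from invasive disease. MMP1 and MMP13 are collagenases, MMP2 and MMP9 gelatinases, MMP3 and MMP10 stromelysins, MMP7 is matrilysin, MMP28 is epilysin, and MMP14 is anchored in the plasma membrane, where it activates the proenzyme of MMP2 with the help of TIMP2. Most are secreted as inactive proenzymes and held in check by TIMPs, and several of their promoters are textbook targets of AP-1 and ETS factors.

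The values are csaw's, as the authors deposited them. A table against input lists regions where the immunoprecipitate exceeded input, with the log2 fold change as a measure of enrichment. A direct table gives shANCO1 over shCTRL, positive where shANCO1 was higher. The log2 fold change is that of 1 representative window, while the FDR covers all windows of the region. A region was called up or down at FDR under 0.05. Each region carried 1 value for the 3 libraries of each group, so no value per library, replicate spread or read depth could be given, and significance rests on the authors' FDR. Whether more cells carried the mark or each cell carried more of it cannot be told apart in bulk chromatin. The direct and input comparisons share the same shANCO1 and shCTRL libraries and are given side by side, not as independent evidence.

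Sequences of MMP promoters and regions are shown first, 5′ to 3′ on the strand of the gene, with GRCh38 coordinates. Capitals mark matches on either strand to the letters TGAGTCA (AP-1), GGAATG (TEAD) or AGGAAG (ETS). MMP7, MMP10 and MMP14 were the 3 of 9 genes matched in the RefSeq promoter table (GRCh38.p14). The promoters of MMP7, chr11:102530751-102530997 on the minus strand, and MMP14, chr14:22836335-22836559 on the plus strand, lie at or beside regions that were up in DCIS.
MMP7 promoter: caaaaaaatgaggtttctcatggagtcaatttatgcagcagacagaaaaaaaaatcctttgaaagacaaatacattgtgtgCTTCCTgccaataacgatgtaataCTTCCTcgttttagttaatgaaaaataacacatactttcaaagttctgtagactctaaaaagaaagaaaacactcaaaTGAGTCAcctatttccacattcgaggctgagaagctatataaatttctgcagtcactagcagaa
MMP14 promoter: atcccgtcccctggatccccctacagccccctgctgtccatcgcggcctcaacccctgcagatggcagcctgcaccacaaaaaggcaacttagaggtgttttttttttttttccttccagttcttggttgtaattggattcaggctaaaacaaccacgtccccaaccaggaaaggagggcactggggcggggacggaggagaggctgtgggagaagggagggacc
Downstream of MMP14, the 300 bases at the middle of the DCIS region with the largest log2 fold change among members are chr14:22851051-22851350, and none of the 3 motifs occurs in them.
MMP14 downstream: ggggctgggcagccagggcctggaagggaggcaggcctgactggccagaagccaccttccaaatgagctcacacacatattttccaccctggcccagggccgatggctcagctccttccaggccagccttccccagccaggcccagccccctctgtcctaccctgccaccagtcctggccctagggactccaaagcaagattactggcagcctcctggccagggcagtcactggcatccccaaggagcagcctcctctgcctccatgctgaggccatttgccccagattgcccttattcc
In MMP2, the 200 bases at chr16:55471201-55471400 form the intronic region enriched in 10A shCTRL, and the enriched region of each other group covers them.
MMP2 intron: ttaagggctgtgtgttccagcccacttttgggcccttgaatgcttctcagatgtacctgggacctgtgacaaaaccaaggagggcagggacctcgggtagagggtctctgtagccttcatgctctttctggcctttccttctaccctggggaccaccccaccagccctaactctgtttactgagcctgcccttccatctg
Upstream of MMP3, chr11:102844051-102844350 on the minus strand is the middle of the region enriched in 10A shANCO1 cells alone among the 4 input tables.
MMP3 upstream: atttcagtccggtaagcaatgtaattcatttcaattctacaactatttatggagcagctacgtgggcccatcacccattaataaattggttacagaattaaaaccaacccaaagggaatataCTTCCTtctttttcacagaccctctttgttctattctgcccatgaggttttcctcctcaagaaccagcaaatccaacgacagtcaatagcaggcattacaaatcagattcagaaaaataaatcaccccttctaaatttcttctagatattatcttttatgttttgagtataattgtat
Upstream of MMP9, chr20:46005151-46005450 is the middle of the only region placed at this gene.
MMP9 upstream: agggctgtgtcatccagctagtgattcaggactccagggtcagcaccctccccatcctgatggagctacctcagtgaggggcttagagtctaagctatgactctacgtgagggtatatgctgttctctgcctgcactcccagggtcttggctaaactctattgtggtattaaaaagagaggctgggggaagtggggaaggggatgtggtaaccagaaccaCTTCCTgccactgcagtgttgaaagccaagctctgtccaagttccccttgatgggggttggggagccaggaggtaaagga

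With 14 regions a line, motif counts at the middle of the MMP regions are too few to set apart from the shares over all regions. In the central 300 bases, 1 of 14 regions in 10A and 0 of 14 in DCIS held TGAGTCA on either strand, where 11.1% and 9.4% of all tested regions did. TEAD letters occurred in 2 and 3 of 14, against 18.0% and 17.4%, and ETS letters in 6 and 4 of 14, against 35.3% and 34.8%. RefSeq promoters held them in 4.95%, 14.0% and 33.6% respectively. Across the full width of the regions AP-1 matches appeared in a few regions, and 3 of them lay in regions present in both lines. At MMP7 the match stood 67 bp before the start site, at chr11:102530808-102530814, in the promoter printed above. Of DCIS regions of like width, within 20% of the 800 bp here, 19.9% held a match, and 5.35% did for the 300 bp region in 10A. In 10A alone, the MMP14 regions chr14:22848201-22850200 and chr14:22850601-22853700 held one each, as did 43.6% and 55.6% of like-width regions. The latter match, chr14:22851495-22851501, runs past the edge of the DCIS region chr14:22850901-22851500. The wide region over the MMP14 start site held one, at chr14:22839669-22839675, as did 60.8% of like-width regions in DCIS and 64.4% in 10A. The MMP2 intronic region held one at chr16:55471609-55471615, as did 45.3% and 44.4%. These are letters within a window and not mapped binding. The last 2 are printed with 20 bases on each side, AP-1 letters in capitals.
MMP14 gene body: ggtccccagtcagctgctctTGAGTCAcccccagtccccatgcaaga
MMP2 intron AP-1: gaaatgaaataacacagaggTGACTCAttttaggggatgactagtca

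Acetylation at the MMP genes was higher in shANCO1 cells at many regions in both lines, and none was called down. In 10A, 14 regions lay at 5 of the 9 genes, of which 9 were up, 0 down and 5 not called. In DCIS, 14 regions lay at 6 genes, of which 7 were up, 0 down and 7 not called. The regions that were up belonged to MMP2, MMP3, MMP9 and MMP14 in 10A and to MMP2, MMP7 and MMP14 in DCIS.

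These counts stand on a broad shift. Of all tested regions in 10A, 43.6% were up and 0.225% down, and the MMP share was 64.3%. In DCIS, 23.6% of regions were up and 4.86% down, and the MMP share was 50%. Per gene, 76.9% of protein-coding genes with a region in 10A had at least 1 up, as did 4 of the 5 MMPs. In DCIS the corresponding share was 31.9%, and it was 3 of 6 for the MMPs. The 4 of 5 in 10A is thus close to the background. The median log2 fold change was 0.94 over MMP regions and 0.76 over all regions in 10A, and 1.19 against 0.52 in DCIS. Relative to the table median, no MMP region in 10A stood 1 log2 unit or more above it, and 4 in DCIS did. Values spread more widely in DCIS, so this cut is not alike in the 2 lines. An MMP14 region 0.57 above the median was at the 92.1 percentile in 10A. In DCIS an MMP7 region 1.14 above it was at the 86.6 percentile. The share of all regions past the cut was not counted.

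**Figure D1:**
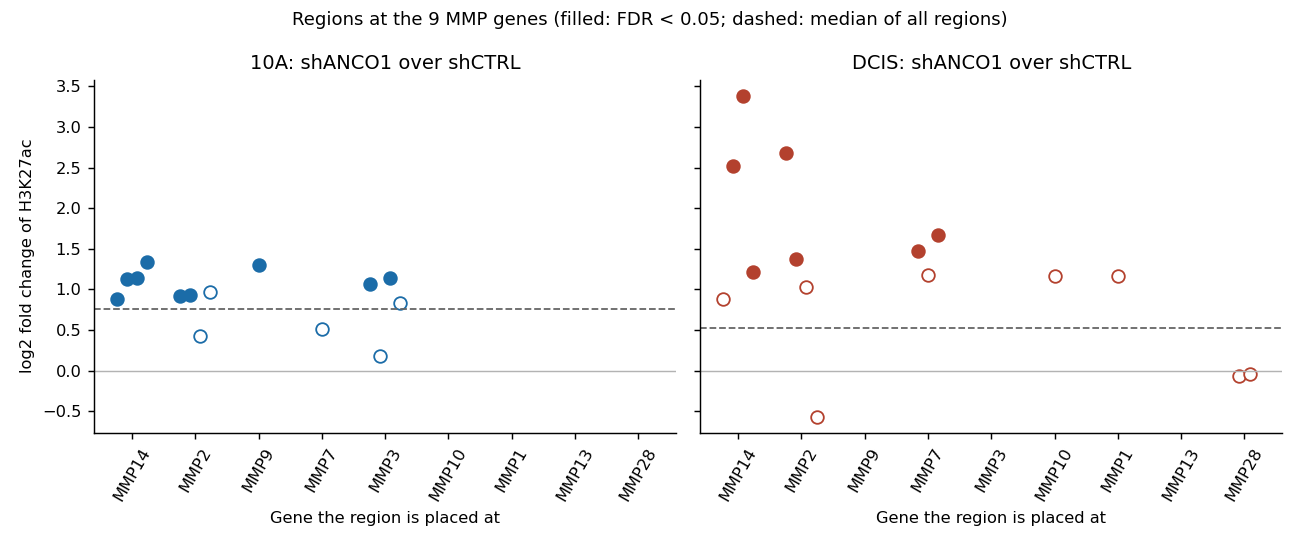
log2 fold change of H3K27ac, shANCO1 over shCTRL, for each region (1 point) placed at each MMP gene in 10A (left) and DCIS (right). Filled points have FDR under 0.05 and the dashed line is the median of all tested regions; the 10A points reach 1.34 and the DCIS points 3.38, at MMP14. The DCIS region shared by MMP1 and MMP10 is drawn at both.

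MMP14, the membrane-bound activator, was up at several places in both lines and had the largest direct change of the 9 genes. At its start site, 10A cells were enriched over input in shCTRL by a log2 fold change of 3.68, over 19 windows, and in shANCO1 by 4.14, over 27 windows. DCIS shCTRL cells showed 2.60 over 2 windows there, and DCIS shANCO1 cells 5.61 over 24 windows. A start-site region was thus listed in all 4 groups, narrowest in DCIS shCTRL, and in each table it was placed at MRPL52 and SLC7A7 as well. Compared directly, the 10A region chr14:22836101-22840100 was up by 1.13 (FDR 0.00119), with 30 of its 39 windows up. Its DCIS counterpart, chr14:22836501-22840300, was up by 2.52 (FDR 5.97e-08), with 28 of 37 windows up. Above the table medians these values were 0.36 and 2.0.

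Beyond the 3′ end of MMP14, H3K27ac was listed over input only in the shANCO1 groups. 10A shANCO1 cells had a region at chr14:22850701-22852400 with enrichment of 3.58, and DCIS shANCO1 cells had a narrower region at chr14:22853301-22853500 with 3.51. In the direct comparison, 10A was up by 1.34 at chr14:22850601-22853700 (FDR 0.000217), 14.0 kb from the start site. DCIS had a pair of separate regions within that stretch. The nearer, chr14:22850901-22851500, was up by 3.38 (FDR 9.69e-08) in all 5 of its windows and lay at the 99.2 percentile of its table. It was not itself listed as enriched over input in either DCIS group. The farther, chr14:22853101-22853700, was up by 1.21 (FDR 0.0441). A region over the last part of the gene, chr14:22848201-22850200, was tested only in 10A and was up by 1.15 (FDR 0.0246).

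On the other side, a region 5.6 kb before the MMP14 start site was likewise placed at MRPL52 and SLC7A7. Acetylation in regions shared with other genes cannot be assigned to one of them. In 10A it was up by 0.88 (FDR 0.0441), and in DCIS its value was 0.89 (FDR 0.147). It was listed over input in all 4 groups, at 2.48 and 2.70 in 10A shCTRL and shANCO1, and 3.34 and 3.97 in DCIS.

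**Figure D2:**
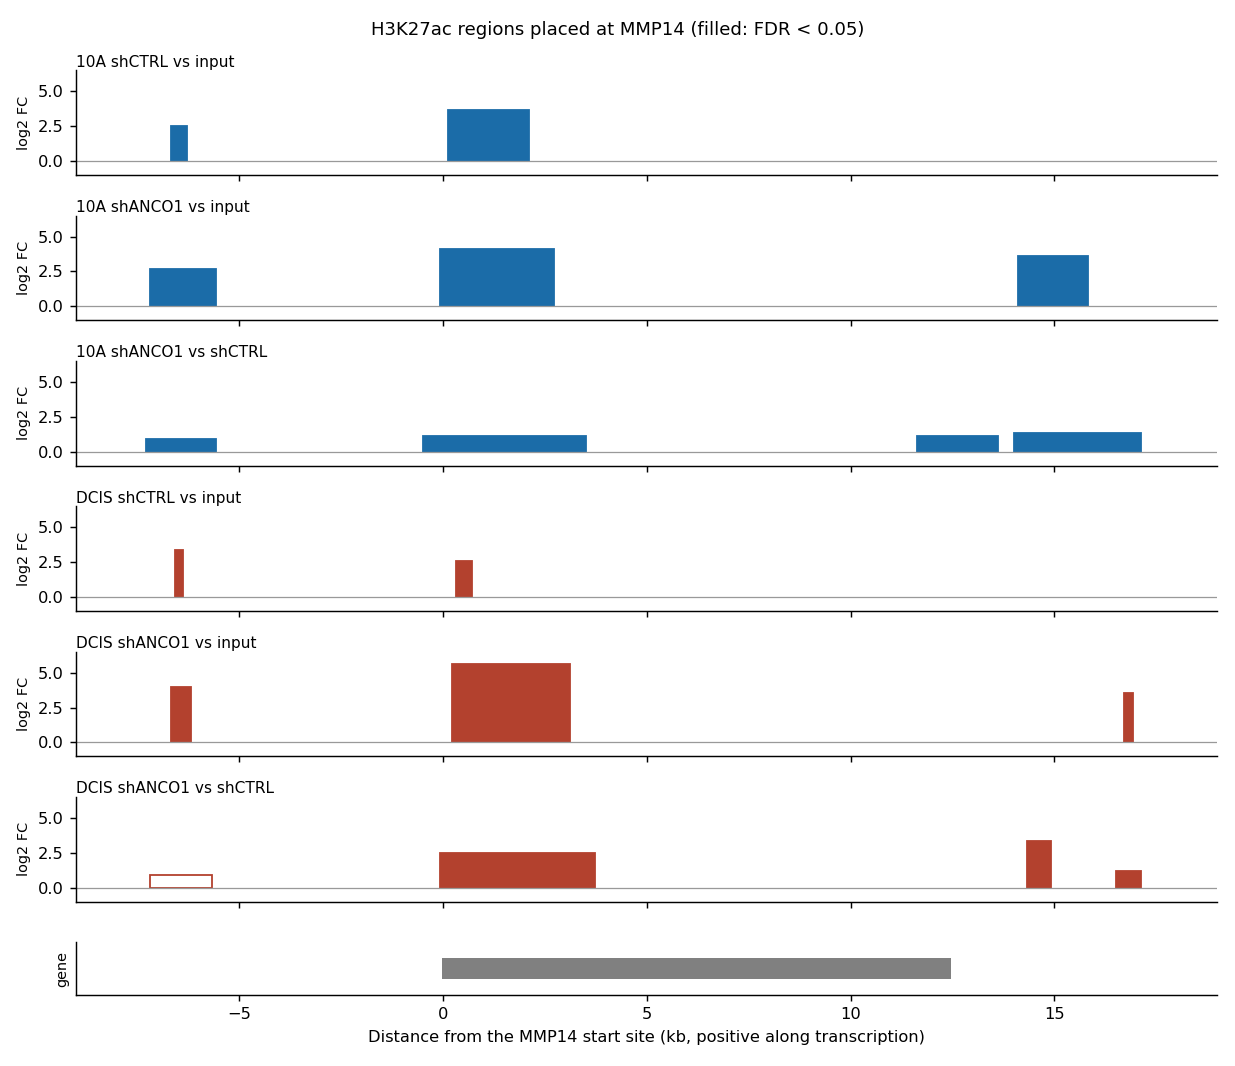
H3K27ac regions placed at MMP14, by distance from its start site in kb (x) and log2 fold change (y), 1 row for each table, with the gene body in grey at the bottom. Filled boxes have FDR under 0.05; boxes beyond 14 kb appear over input in shANCO1 rows only.

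MMP2, the gelatinase that MMP14 activates, was marked in an intron of its longer transcripts, upstream of the usual start site. Enrichment there was 2.67 over 1 window in 10A shCTRL. In 10A shANCO1, separate neighbouring regions had 3.0 over 5 windows and 2.79 over 2 windows. In DCIS it was 3.63 over 3 windows in shCTRL and 4.67 over 5 windows in shANCO1. The direct comparison gave 0.92 in 10A at chr16:55470401-55472500 (FDR 0.0299, 10 of 20 windows up). In DCIS the overlapping region chr16:55470101-55472500 was up by 1.37 (FDR 0.0177), with 5 of 22 windows up. Both lie 6.7 kb before the start site and were also placed at MMP2-AS1, an antisense gene.

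A second place lay inside the gene, about 20.1 to 20.4 kb after the start site, where the regions were also placed at LPCAT2. DCIS cells were enriched over input there, by 3.48 over 3 windows in shCTRL and 7.26 over 2 windows in shANCO1. The latter was the largest enrichment value at any of the 9 genes, from a region of only 300 bp. In the direct DCIS table the wide region around it, chr16:55499301-55503900, had a log2 fold change of 1.03, an FDR of 0.96 and 0 of 42 windows up. The region was therefore not called, although the shANCO1 value over input was the higher. 10A cells had no enrichment listed there, yet chr16:55499601-55501000 was up by 0.93 (FDR 0.0357).

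Far upstream, 86.6 kb before the start site in a long first intron, DCIS had a small region at chr16:55392301-55392600 that was up by 2.67 (FDR 1.45e-05) in both of its 2 windows. It was not listed over input in any group and had no counterpart in 10A. The remaining regions were not called: 0.42 (FDR 0.326) within the gene in 10A, and, at the LPCAT2 side past the 3′ end, 0.96 (FDR 0.0567) in 10A and -0.57 (FDR 0.604) in DCIS.

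**Figure D3:**
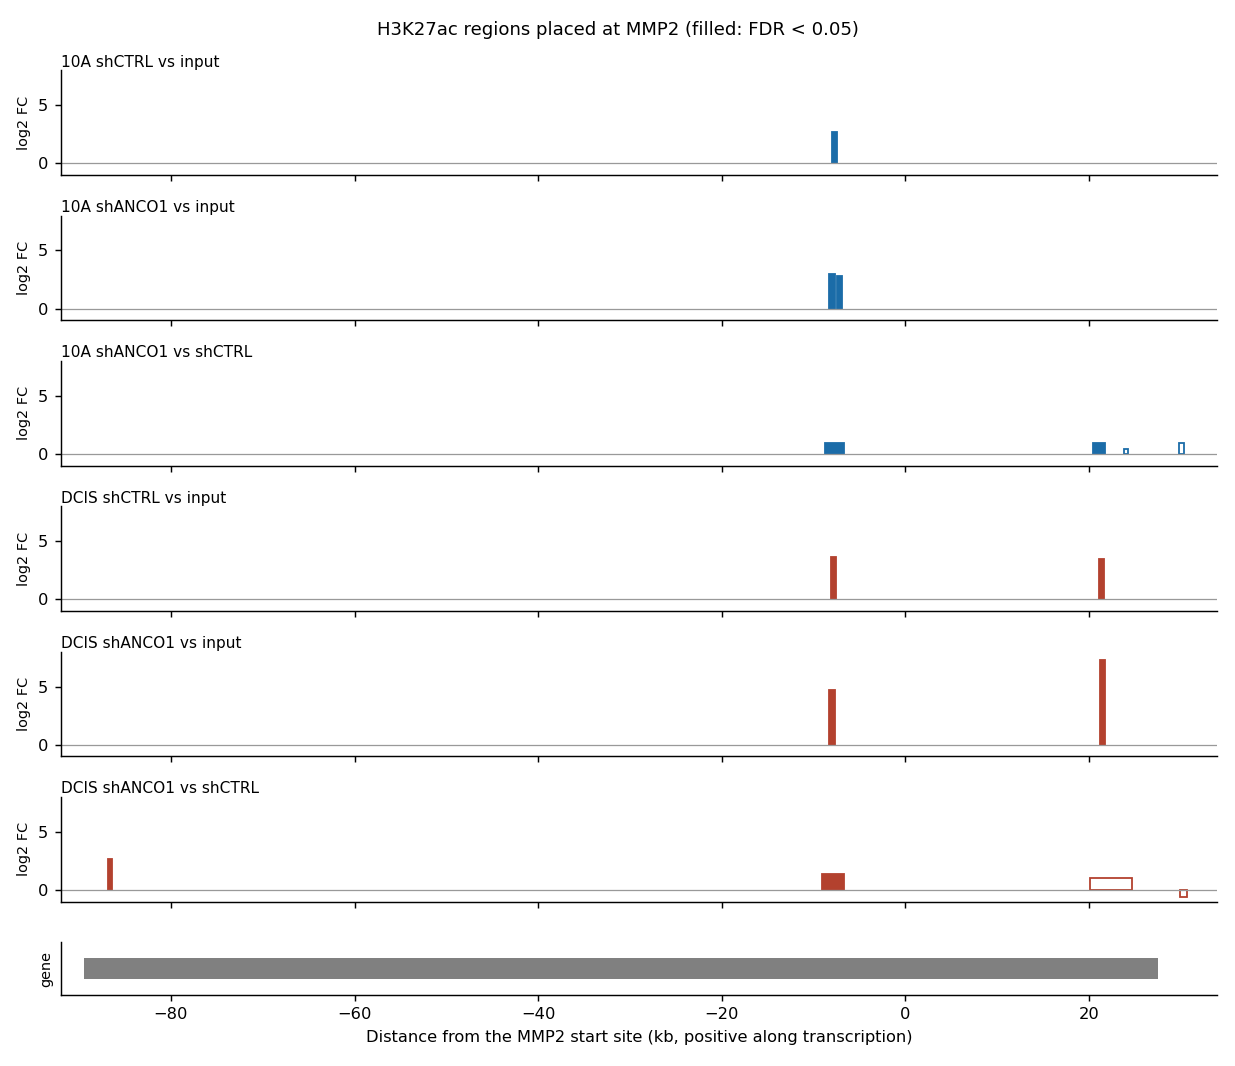
H3K27ac regions placed at MMP2, by distance from its start site in kb (x) and log2 fold change (y), 1 row for each table, with the gene body of all its transcripts in grey. Filled boxes have FDR under 0.05, and the intronic boxes near -7 kb appear in every row. The tallest box, 7.26, is DCIS shANCO1 over input and covers 2 windows.

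MMP9, the other gelatinase, had a single region and only in 10A. It lay 3.4 kb before the start site at chr20:46005101-46005500 and was up by 1.30 (FDR 0.00991) in all 3 windows. It was not listed as enriched over input in either 10A group. SLC12A5-AS1, an antisense gene, was placed at it as well.

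MMP3, a stromelysin, was likewise tested in 10A alone, at 4 regions. The region 292 bp before its start site, chr11:102843901-102844700, was up by 1.15 (FDR 0.00508) in all 7 windows. Its core was enriched over input in 10A shANCO1 by 3.71, and no region was listed there in 10A shCTRL or in DCIS. A second region over the 3′ end, chr11:102835901-102836200, was up by 1.07 (FDR 0.0242). The other two were not called, at 0.18 (FDR 0.689) and 0.83 (FDR 0.149). The pseudogene WTAPP1 runs through the same span and was placed at 3 of the 4.

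MMP7, matrilysin, showed the opposite split between the lines. In DCIS the region over its start site, chr11:102530201-102531000, was up by 1.67 (FDR 0.00382), with 4 of 7 windows up. A second, inside the gene at chr11:102528301-102528800, was up by 1.48 (FDR 0.00628), and one between them had a value of 1.18 (FDR 0.128). In 10A the single region over the start site had a log2 fold change of 0.52 (FDR 0.227), below the median of its table. None of these was listed over input in any group. No test of the difference between lines could be made from these tables, here or for the other genes.

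MMP10, the second stromelysin, and MMP1, the interstitial collagenase, shared 1 region in DCIS, chr11:102783301-102783600, 2.7 kb before the MMP10 start site. Its log2 fold change was 1.16 (FDR 0.0934), so it was not called, and 10A had no region at either gene. MMP28 had 2 regions in DCIS, with values of -0.07 (FDR 0.975) and -0.04 (FDR 0.99), and none in 10A. MMP13, collagenase-3, had no region in any of the 6 tables. A gene without a region has no value in that table, which is not a measurement of 0.

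Across the lines, 9 pairs of MMP regions overlapped, involving 8 regions of each line, while 6 in each had no partner. In 4 pairs, at MMP14 and MMP2, both members were up, and the 10A region chr14:22850601-22853700 entered more than once. The DCIS value stood farther above its table median than the 10A value in 8 of 9 pairs. DCIS values spread more widely, and some pairs share a region, so the pairs are not separate comparisons. The same shares over all overlapping regions were not counted, so these counts show nothing particular to the MMPs. Over the 8181 genes with a region in all 6 tables, each gene was given its 6 log2 fold changes, taken at the region of lowest FDR in each table, and likeness was the Euclidean distance between them. Only MMP14 and MMP2 qualified among the 9. MRPL52 and SLC7A7 were nearest to MMP14, at 0.209, and share its regions, followed by HOXA2 at 0.56. Nearest to MMP2 were TXN2 at 0.645, CDH1 at 0.743 and HGSNAT at 0.835. The values of both genes come from different places. For MMP14, the region used in the direct comparison lay 14.0 kb after the start site in 10A and over it in DCIS. In DCIS shANCO1 over input it lay 6.2 kb before the MMP14 start site. For MMP2 in DCIS, the region used lay 86.6 kb before the start site in the direct comparison and 21.2 kb after it in shANCO1 over input. Likeness to either gene thus does not describe a single element, and no typical distance between genes was computed.

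Enrichment over input was confined to MMP14, MMP2 and, in 10A shANCO1 alone, MMP3. In 10A, 3 of 9 genes had an enriched region in shANCO1 and 2 of 9 in shCTRL, where 60.2% and 38.9% of protein-coding genes did. In DCIS, 2 of 9 had one in each group, against 48.4% in shANCO1 and 45.6% in shCTRL. The summed width of enriched MMP regions in 10A was 7500 bp in shANCO1 and 2600 bp in shCTRL, a ratio of 2.88, and over all enriched regions the ratio was 2.79, so the MMP value was close to the background. In DCIS the widths were 4500 bp and 1400 bp, a ratio of 3.21, and over all enriched regions the ratio was 1.08. The DCIS ratio rests on 5 regions against 4, and its difference from the background was not tested. Of the 9 regions up in 10A, 5 overlapped a region enriched in shANCO1 and 4 overlapped none in either group, where 70.0% and 29.9% of all up regions in 10A did. Of the 7 up in DCIS these counts were 3 and 4, beside 38.4% and 61.5% of all up regions. The study's counts of up-regulated peaks, 15346 in 10A and 4053 in DCIS, equal the numbers of all up regions that overlapped shANCO1 enrichment. The call used here, by FDR of the direct comparison alone, is wider. Counted the narrower way, 5 MMP regions in 10A and 3 in DCIS remain, none of them at MMP9 or MMP7. These few regions show nothing particular to the MMPs.

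MMP7, MMP10, MMP1, MMP3 and MMP13 sit together with MMP20, MMP27, MMP8 and MMP12 in a cluster on chromosome 11, and the change along its 435.2 kb was uneven. 10A had 11 regions in the span and 2 were up, both at MMP3, beside 43.6% of all tested regions. DCIS had 7, of which 5 were up, in the part holding MMP7 and MMP20, beside 23.6% of all tested regions. The difference from these shares was not tested. MMP20, a tooth enamel protease, had 2 regions up in DCIS, at 1.95 (FDR 1e-05) and 1.40 (FDR 0.00268), while its 2 regions in 10A were not called. A DCIS region between MMP7 and MMP20, placed at no member, was up by 3.50 (FDR 1.66e-07).

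**Figure D4:**
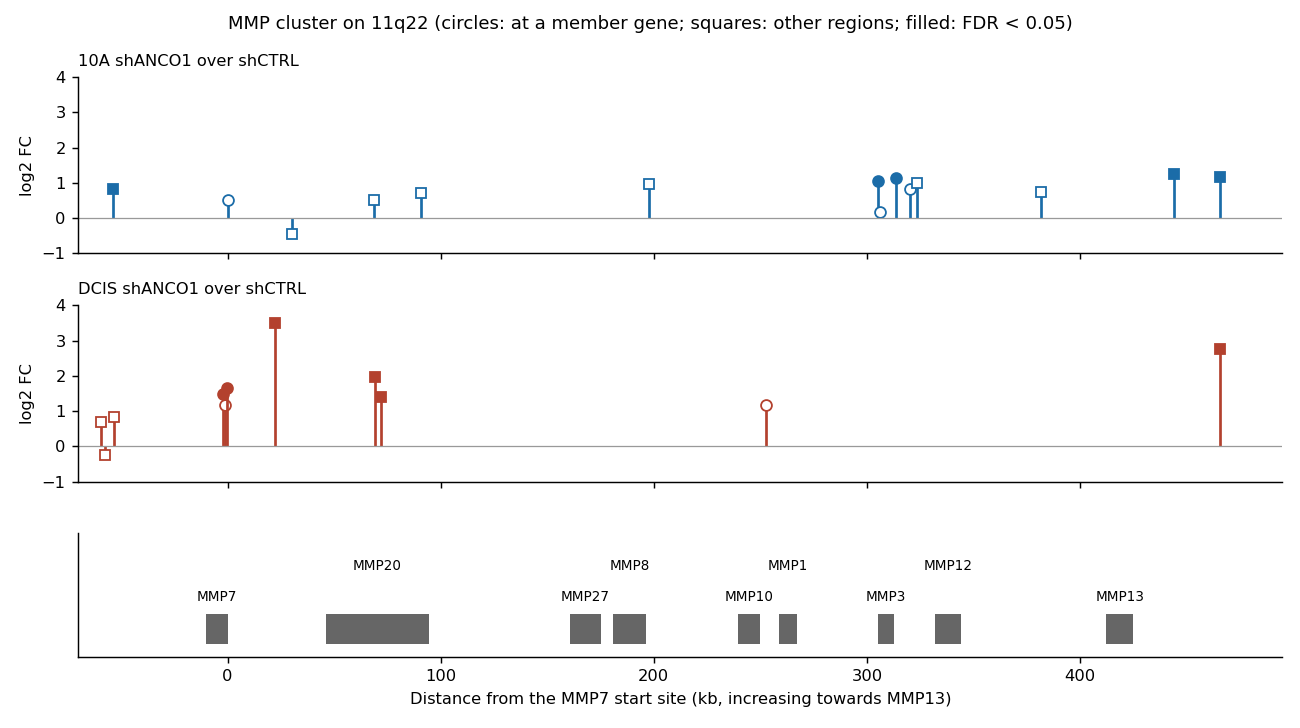
log2 fold change of H3K27ac, shANCO1 over shCTRL (y), for regions along the chromosome 11 MMP cluster by distance from the MMP7 start site in kb (x), in 10A (top) and DCIS (middle), with gene bodies below. Circles are regions at member genes, squares other regions and filled symbols FDR under 0.05; the filled 10A circles stand at MMP3 and the filled DCIS circles at MMP7.

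Related genes gave a mixed picture, and the lists are described by count and median only. Over all tested regions, 43.6% were up in 10A and 23.6% in DCIS, with medians of 0.76 and 0.52. Among the other MMPs, 11 of 23 regions were up in 10A, at MMP16, MMP17, MMP19, MMP24 and MMP25, with a median of 0.75. In DCIS, 3 of 16 were up, at MMP20 and MMP24, and 2 were down, at MMP16 and MMP17, with a median of 0.04. At MMP17, a membrane-type enzyme, 1 region with the same edges was up by 1.08 (FDR 0.0113) in 10A and fell by 2.01 on the log2 scale (FDR 0.00968) in DCIS. Their share up in DCIS, 18.8%, lay below that of all tested regions, and the difference from the 9 genes was not tested.

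Among inhibitors, TIMP2, the partner of MMP14 in MMP2 activation, was up in both lines. All 5 of its regions in 10A were up, by 0.84 to 1.27, and 3 of 4 in DCIS, by 1.75 to 2.57. TIMP1 was up in 10A only, by 1.62 (FDR 0.00132), and A2M, a plasma protease trap, by 0.91 (FDR 0.0388). RECK, a membrane-anchored MMP inhibitor, fell by 1.72 on the log2 scale (FDR 0.0128) in DCIS. In all, 7 of 11 inhibitor regions were up in 10A (63.6%, median 0.91) and 3 of 11 in DCIS (27.3%, median 0.16). All tested regions stood at 43.6% and 23.6%, so the DCIS share was close to the background.

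Among activators and cofactors, 10 of 14 regions were up in 10A (71.4%, median 0.99) and 6 of 26 in DCIS (23.1%, median 0.69). Shares over all tested regions were 43.6% and 23.6%, so the DCIS share was near the background. PLAU, the urokinase that turns plasminogen into an MMP activator, had 3 regions up in each line, reaching 1.34 in 10A and 3.47 in DCIS. PLAT had 2 of 3 regions up in 10A and 1 of 7 in DCIS. FURIN had 3 of 3 and BSG 2 of 2 up in 10A, and KLK7 had 2 of 9 up in DCIS. Of the ADAM and ADAMTS proteases, 30 of 50 regions were up in 10A (median 0.91), with at least 1 at each of 9 genes, and 12 of 40 in DCIS (median 0.85), at 7 of 10 genes. Among the called regions, ADAMTS9 had the largest 10A value, 2.65 (FDR 2.13e-06), and ADAMTS4 the largest DCIS value, 2.96 (FDR 7.09e-06). The ADAMTS4 region held 1 window and was placed beside the gene, not over it.

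**Figure D5:**
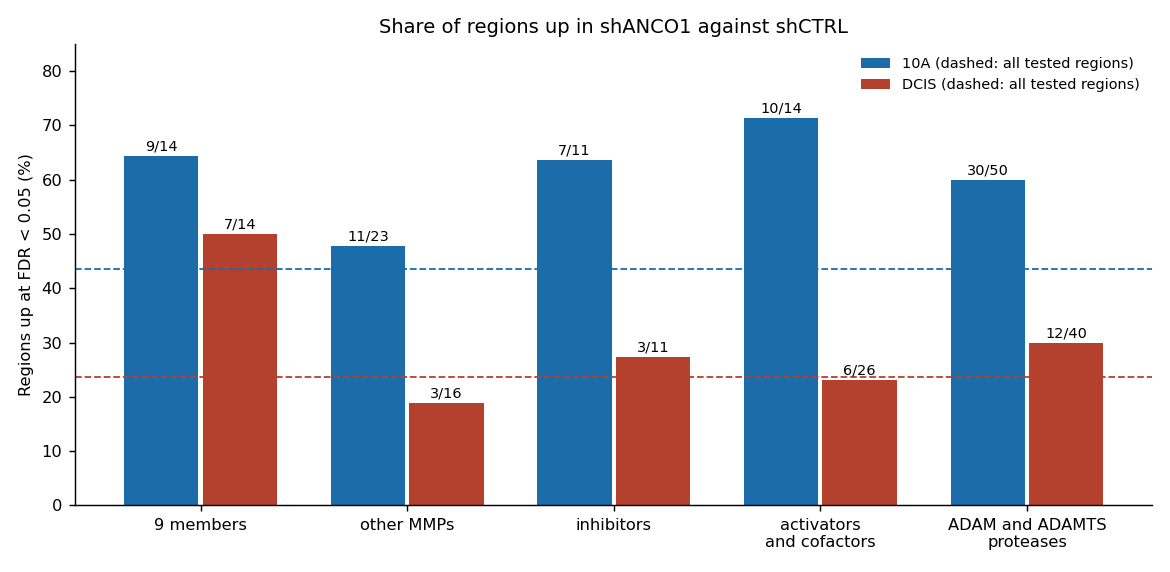
Share of regions up at FDR under 0.05 in shANCO1 against shCTRL (y, percent) for the 9 MMPs and 4 lists of related genes in 10A (blue) and DCIS (red), with counts above the bars and dashed lines for all tested regions, 43.6% and 23.6%. The MMP bars stand at 9 of 14 and 7 of 14, and the other MMPs in DCIS at 3 of 16.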

How the data were processed

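H3K27ac and input libraries of 10A and DCIS cells were sequenced paired-end on a HiSeq 4000. The authors used BWA and Rsubread for alignment (GRCh38), samtools for deduplication, csaw for differential binding and ChIPpeakAnno to place genes. Their normalization, window filter and merging are not given in the sources used here, and normalization sets the zero of each log2 fold change. The deposited log2 fold change belongs to a region of merged windows. The deposited p-value and its FDR came from the authors' test over 3 libraries a group, and window numbers were deposited as other whole numbers, not reads. The authors' comparison columns are used here as the measurement, since the tables hold no other value.

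From these tables, regions naming a member were taken with Python 3.11.15 and pandas 2.3.3, and called at the authors' FDR under 0.05. No new test was run. Each member is given by its regions, and list genes are named where past that threshold. Start sites came from GENCODE 44, where 89.7% of the placed symbols were found. Motifs were counted with pysam 0.24.0 in 300 bp windows. Members and lists were chosen with earlier results of these data known. Alternatives were FDR 0.01 and 0.1, distance from the table median, at least 5 windows, enrichment at FDR under 1e-10, and placement by overlap alone. Depth was unknown.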

Additional observations from a re-analysis of the deposited data

How the results depend on the processing

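No paired analysis was possible because the deposited tables hold 1 value per region for whole groups and no column for any numbered replicate, and for that reason no library could be left out either. The count of MMP regions up in 10A, 9, became 4 at FDR under 0.01 and 0 when a log2 fold change of at least 1 above the table median was required. The DCIS count, 7, became 4 under that requirement. For enrichment over input, the 3 regions of 10A shCTRL became 1 at FDR under 1e-10 and 1 with at least 5 windows. The 5 regions of DCIS shANCO1 became 2 with at least 5 windows and 3 when only the overlap column placed genes. The 4 of DCIS shCTRL became 1 at FDR under 1e-10 and 0 with at least 5 windows. The other 39 counts under alternatives stayed within 1.5 times the reported count, and no direction reversed. Representing a gene by the region nearest its start site in place of the lowest FDR kept the direction and call in 11 comparisons, but the MMP2 value in DCIS went from 2.67 to 1.37. Read depth and replicate spread were unknown, which limits every value here to the authors' own test, and a region absent from a table against input is not shown to lack the mark.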

Other observations

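Several regions near MMP13 and MMP9 were placed at no member gene, because they lay beyond the placement distance, and were chosen after their values were seen. Upstream of MMP13, 39.5 kb from its start site, chr11:102995201-102997400 was up by 1.17 (FDR 0.00126) in 10A, with enrichment over input of 3.16 in shCTRL and 5.90 in shANCO1. In DCIS the overlapping region chr11:102995901-102997000 was up by 2.76 (FDR 1.49e-05) in all 7 windows, with no enrichment listed over input. A second 10A region, 18.6 kb upstream, was up by 1.25 (FDR 0.0307). Which gene these regions act on was not tested.

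Upstream of MMP9, chr20:45992801-45996300 was up by 1.03 (FDR 0.0427) in DCIS with 4 of 31 windows up. Within it, enrichment over input in shANCO1 was 7.77 at 15.3 kb and 4.82 at 13.4 kb from the start site, and shCTRL had 4.05 at 13.7 kb. The 10A regions at this place had values of 0.37 (FDR 0.665) and -0.69 (FDR 0.419).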
